A study of Mus musculus with 9 samples.

Results

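Gene expression in the abdominal aorta after periaortic CaCl2 was compared with that after a sham operation, in mice that lack B cells. The comparison takes the 3 samples titled uMT_Ca and the 3 titled uMT_sham, 6 of the 9 arrays of the series, and 16552 genes entered the test. Every mouse carried the uMT genotype on the C57BL/6 strain, so the sham group lacked B cells as well. The CaCl2 group had a 0.5 M solution placed around the aorta and was sampled 7 days later. The sham group had saline in place of CaCl2, and none of the sources used here gives the day on which its aortas were taken. The other 3 arrays are of uMT mice that had CaCl2 and were injected intraperitoneally with polyclonal mouse IgG. They took no part in the fit and are given below only as values beside it. The labels do not say whether the replicates of a group are separate animals, so a p-value reflects how far these samples spread, and that spread may be technical.

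In the uMT mutation the membrane form of the immunoglobulin heavy chain cannot be made, and B cells stop developing before they leave the bone marrow. Calcium placed on the outside of an artery precipitates along its elastic layers, and leukocytes, mostly macrophages, enter the outer wall. The smooth muscle cells of the middle layer contract through myosin, whose activity is set by calcium, cyclic nucleotides and G protein-coupled receptors, and these cells can lose their contractile program after injury.

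Each value is the log2 of a probe's background-subtracted signal minus the 75th percentile of its array, so it says how bright a gene's probe is relative to that percentile. A change is the CaCl2 mean minus the sham mean, with the standard error (SE) of the fit, and a gene was called when limma gave an adjusted p under 0.05, with the Benjamini-Hochberg adjustment over all genes tested. With 3 arrays a group, 6917 of 16552 genes (41.8%) were called. With CaCl2, 3072 genes (18.6%) were higher and 3845 (23.2%) were lower, and 1969 of the higher and 1978 of the lower genes changed at least 2-fold. The CaCl2 and sham arrays did not overlap at 9386 genes (56.7%). The median change over all genes was -0.08. In whole tissue, fewer cells of a type and less RNA per cell cannot be told apart, and this holds for every decrease and increase below.

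The split between higher and lower genes depended on how the arrays were scaled. Of the called genes, 44.4% were higher with CaCl2 when each array was set to its 75th percentile. The share was 81.2% when each array was set to its median, 54.3% after quantile normalization, 54.4% in the authors' series table and 28.5% when no dim probe was left out. Median scaling moved the median change of all genes from -0.08 to 0.46, so the changes below are relative to the 75th percentile. Under median scaling, 42.2% of all tested genes were called higher and 9.75% lower, and counts of list members given below for that scaling are to be read beside these shares. The 75th percentile of signal itself was 271, 302 and 267 in the sham group and 496, 461 and 381 in the CaCl2 group. Every CaCl2 array was brighter than every sham array. Split in 3 equal parts by brightness, the dimmest genes had a median change of -0.23, with 1123 higher and 1791 lower. The middle and brightest parts had medians of -0.04 and -0.05, with 1061 higher and 1053 lower in the former and 888 higher and 1001 lower in the latter.

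**Figure D1:**
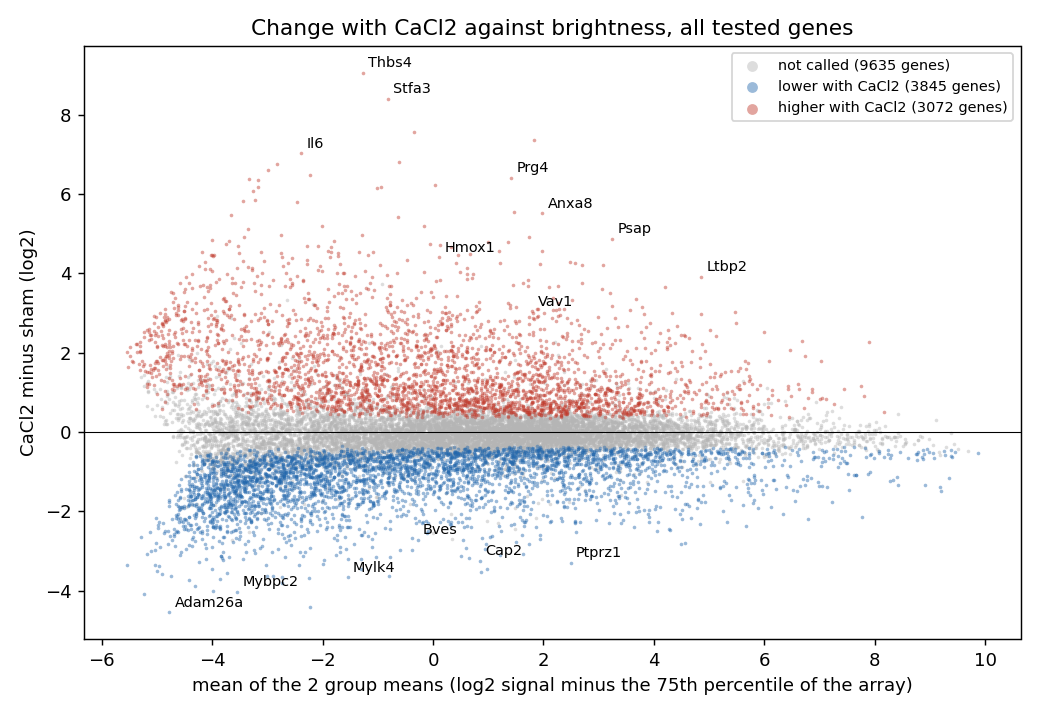
Change of each of the 16552 genes (y axis, log2, CaCl2 minus sham) against its mean brightness over the 6 arrays (x axis, mean of the 2 group means, log2 signal minus the 75th percentile of the array), with called genes coloured by direction and genes below background plotted at their measured signal. Called genes lie on both sides of 0 at every brightness, and the dimmest of 3 equal parts leans to lower values, with a median of -0.23.

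The arrays sat on 2 slides, with the third sham array alone on the second. Within the first slide, which holds the 3 CaCl2 arrays and the other 2 sham arrays, 5537 genes were called, 46.8% of them higher. On the first slide the sham arrays lay in row 2 and the CaCl2 arrays in row 1, so group and row coincided there. The third sham array lay in row 1 of its slide. With the row as a block, the change therefore sets the CaCl2 arrays against the third sham array alone. No comparison of the groups was free of both slide and row. Of the variance of the 6 arrays, 80.3% lay along the first principal component, which separated the groups, at 50.9 to 90.3 for CaCl2 and -86.6 to -60.8 for sham. Smooth muscle markers were bright on every array, with a mean over 6 genes of 7.62, 7.61 and 7.84 in sham aortas and of 5.62, 6.27 and 5.31 after CaCl2. Macrophage markers had means of 1.72, 1.94 and 0.37 in sham aortas and 4.08, 3.97 and 4.12 after CaCl2.

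The third array of the CaCl2 plus IgG group stood near the sham arrays at part of the genes that moved. Its 75th percentile was 270, as on the sham arrays, against 449 and 455 on the other 2 arrays of its group. On a scale where the sham mean is 0 and the CaCl2 mean is 1, the genes called at least 2-fold lower had a median of 0.318 on that array, against 1.02 and 0.992 on its 2 companions. The genes called at least 2-fold higher had medians of 0.834 on that array and 0.967 and 0.998 on the other 2. Among the lower genes the gap lay in the dim ones: 760 of the 1220 lower genes in the dimmest part were under 0.25 on that array, against 61 of 339 in the brightest part. That array had CaCl2, so its value is given below beside each called gene named at which it lay under 0.35 on this scale. Genes named only for a change of sign, in the section on processing, are left out of this. What sets it apart was not tested.

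The largest increases with CaCl2 included secreted and matrix genes, chemokines and receptors of myeloid cells. Prg4, which encodes the joint lubricant lubricin, was -1.78, -2.31 and -1.28 without and 4.78, 4.12 and 4.95 with CaCl2. The groups lay far apart, and the change was 6.40 ± 0.32 (SE, adjusted p = 0.000161), although the gene's other probe changed by 0.22. Anxa8, an annexin that binds phospholipid in the presence of calcium, was -0.49, -0.73 and -1.12 after sham surgery and 4.69, 4.31 and 5.20 after CaCl2, a change of 5.51 ± 0.27 (SE, adjusted p = 0.000158). Kng1, the kininogen from which bradykinin is cut, was -1.52, -1.39 and -1.29 in sham and 3.54, 2.90 and 3.69 in CaCl2 aortas and rose by 4.78 ± 0.22 (SE, adjusted p = 0.000156). All 3 genes were high on each CaCl2 array and low on each sham array. Cxcl14, a chemokine of epithelia and fibroblasts, was -1.67, -0.18 and -1.26 without and 3.90, 3.04 and 4.35 with CaCl2 and rose by 4.80 ± 0.46 (SE, adjusted p = 0.000851).

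Hmox1, which encodes the heme oxygenase that degrades heme to iron, carbon monoxide and biliverdin, was -2.23, -1.84 and -2.21 after sham surgery and 2.42, 2.06 and 2.46 after CaCl2. Its change, 4.41 ± 0.18 (SE, adjusted p = 0.000156), was among the 10 increases with the smallest SE for their size. Socs3, a feedback inhibitor of JAK-STAT signalling, was -0.12, -0.59 and -0.22 in sham and 5.10, 2.74 and 4.91 in CaCl2 aortas. The second CaCl2 array was the lowest of its group and still stood above all sham arrays, and the change was 4.56 ± 0.60 (SE, adjusted p = 0.00193). Serpina3g, an intracellular protease inhibitor of leukocytes, was -0.19, -0.60 and -2.48 without and 2.96, 2.18 and 5.27 with CaCl2 and rose by 4.56 ± 0.90 (SE, adjusted p = 0.00796). Its highest CaCl2 value was on the third array.

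Receptors of myeloid cells rose with little spread. Cd72, an inhibitory receptor of B cells and macrophages, was -1.86, -1.29 and -2.18 after sham surgery and 2.66, 2.23 and 3.13 after CaCl2 in these B cell-deficient aortas, a change of 4.45 ± 0.30 (SE, adjusted p = 0.000376). Sirpb1b, a signal-regulatory protein that couples to activating adaptors, was -2.18, -2.19 and -3.53 in sham and 1.65, 1.26 and 2.18 in CaCl2 aortas, a change of 4.33 ± 0.42 (SE, adjusted p = 0.000847). The groups did not overlap at either gene. Markers of B cells were present at low levels and of 6 measured 4 were called higher and 1, the transcription factor gene Pax5, lower (-1.90 ± 0.39, with the third CaCl2 plus IgG array at -2.36), with list means of -2.27, -2.30 and -2.29 in sham aortas and -1.35, -0.99 and 0.17 after CaCl2. The part of these B cell markers in the increase of Cd72 was not tested. Of 4 plasma cell markers measured, 2 were called higher and 0 lower. Their means were -0.80, -0.33 and -1.06 in sham aortas and 2.06, 2.04 and 1.77 after CaCl2. Jchain, a plasma cell marker among the 15 largest increases, rose by 5.55. It was -1.95, 0.17 and -2.17 in sham and 4.69, 4.80 and 3.22 in CaCl2 aortas. Which cells carried this signal was not tested.

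Cxcl10, an interferon-induced chemokine for T cells, varied widely. Its values were -0.00, -3.005 and -3.67 without and 2.42, 0.44 and 4.57 with CaCl2, so the lowest CaCl2 array stood only just above the highest sham array, and the change was 4.70 ± 1.26 (SE, adjusted p = 0.0242). The call was lost without sham replicate 2 (adjusted p = 0.0753) or 3 (adjusted p = 0.0745) and without CaCl2 replicate 1 (adjusted p = 0.0646) or 3 (adjusted p = 0.0556). The third array of the CaCl2 plus IgG group was at -1.16, near the sham arrays.

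**Figure D2:**
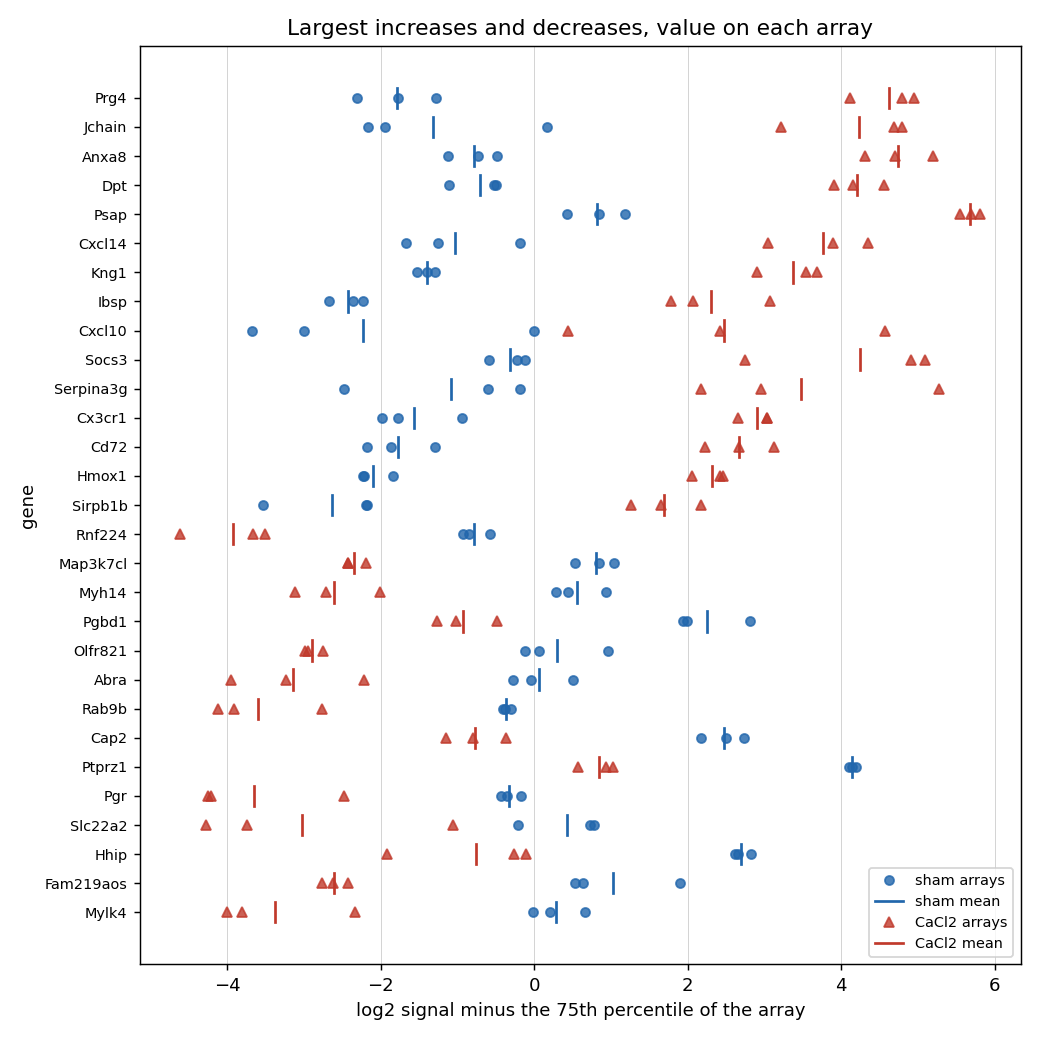
Value on each array (x axis, log2 signal minus the 75th percentile of the array) of the 15 largest increases and 14 of the 15 largest decreases among called genes that were well above background on all 6 arrays, with circles for sham, triangles for CaCl2 and a bar at each group's mean. No gene overlaps between groups, and the narrowest gap is at Cxcl10, from -0.00 on the first sham array to 0.44 on the second CaCl2 array.

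The largest decreases included genes of actin and myosin, a transporter and receptors. Mylk4, a kinase of the myosin light chain kinase family, was 0.20, -0.01 and 0.66 after sham surgery and -3.997, -2.34 and -3.80 after CaCl2 and fell, with a change of -3.66 ± 0.44 (SE, adjusted p = 0.00154). Cap2, which turns over actin filaments in muscle, was 2.17, 2.50 and 2.73 in sham and -0.80, -0.37 and -1.15 in CaCl2 aortas, a change of -3.24 ± 0.24 (SE, adjusted p = 0.000481). Abra, which links actin to the serum response factor coactivators, was -0.04, 0.50 and -0.27 without and -3.24, -2.22 and -3.95 with CaCl2, a change of -3.20 ± 0.44 (SE, adjusted p = 0.00221). The groups did not overlap at any of the 3, and the second CaCl2 array was the nearest to sham at each. Myh14, a non-muscle myosin heavy chain, changed by -3.16 ± 0.31 (SE, adjusted p = 0.000892).

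Ptprz1, a receptor tyrosine phosphatase that binds pleiotrophin, was 4.10, 4.19 and 4.13 after sham surgery and 0.94, 1.02 and 0.56 after CaCl2. Its change, -3.30 ± 0.16 (SE, adjusted p = 0.000156), was one of the steadiest decreases. Hhip, which sequesters hedgehog ligands, was 2.62, 2.83 and 2.65 in sham and -1.92, -0.10 and -0.27 in CaCl2 aortas and changed by -3.46 ± 0.46 (SE, adjusted p = 0.00199). Map3k7cl changed by -3.15 ± 0.17 (SE, adjusted p = 0.000194). Rab9b, a small GTPase of late endosomes, changed by -3.23 ± 0.34 (SE, adjusted p = 0.00109).

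Slc22a2, an organic cation transporter, was -0.22, 0.72 and 0.77 after sham surgery and -3.75, -1.06 and -4.28 after CaCl2. The second CaCl2 array was the closest to sham, and the change was -3.45 ± 0.81 (SE, adjusted p = 0.0149). The call was lost without CaCl2 replicate 1 (adjusted p = 0.0519). With the row of the slide as a block, which leaves 1 sham array in the comparison, the change was -3.80.

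Pgr, the progesterone receptor, was -0.44, -0.36 and -0.18 in sham and -4.22, -2.47 and -4.26 in CaCl2 aortas and changed by -3.32 ± 0.47 (SE, adjusted p = 0.00242). The other named decreases were Rnf224 (-3.14 ± 0.30, with the third CaCl2 plus IgG array at -1.66), Fam219aos (-3.63 ± 0.36), Pgbd1 (-3.17 ± 0.30) and the olfactory receptor Olfr821 (-3.19 ± 0.29). At the last 3, the third array of the CaCl2 plus IgG group was near sham, at 0.57, 1.92 and -0.11 in that order. Fam219aos is antisense to another gene, and the array's probe was taken as labelled.

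Where a gene was not well above background on any array of 1 group, its change is a lower bound, taken from the dimmest signals that were well above background on those arrays. Of 490 genes above background in the CaCl2 group only, 368 were called, and of 101 in the sham group only, 101 were called. The share called over all tested genes was 41.8%. These genes passed the filter only through the group where they are high, so their direction follows from the filter. Stfa3, a stefin that inhibits cathepsins in neutrophils, was at least 200-fold higher (adjusted p = 0.000229), with 3.91, 2.76 and 3.49 on the CaCl2 arrays. Thbs4, a thrombospondin of tendon and injured muscle, was at least 186-fold higher (adjusted p = 0.000156), at 3.02, 2.70 and 4.06. Clec4e, the receptor Mincle that senses mycobacterial lipid and cell death, rose at least 28.5-fold (adjusted p = 0.000325). Ly6d rose at least 22.3-fold (adjusted p = 0.00136). Pkp1, a desmosome protein, rose at least 13.3-fold (adjusted p = 0.000156). The 3 Pkp1 arrays of the CaCl2 group lay close together, at -0.63, -0.90 and -0.10.

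Il6, the cytokine that signals through JAK1 and STAT3, was at least 42.2-fold higher (adjusted p = 0.00517) but spread widely within the CaCl2 group, at 2.23, -1.91 and 3.04. The second CaCl2 array was again the lowest. In the other direction, Dner, a Notch-binding protein of neurons, was at least 8.51-fold lower (adjusted p = 0.00076), and Rbfox3, a splicing factor known from neurons, at least 7-fold lower (adjusted p = 0.000604). The skeletal myosin-binding gene Mybpc2 was at least 11.7-fold lower (adjusted p = 0.000316). Robo2, a receptor for Slit ligands, was at least 7.69-fold lower (adjusted p = 0.000239), at -2.15, -1.89 and -2.31 in sham aortas, while the third array of the CaCl2 plus IgG group was at -2.20.

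Promoters of 6 of these genes are shown because interferon, NF-kB, myeloid and muscle regulators bind known motifs, and genes carrying those motifs can be counted. The sequences are the 250 bases before the start site in RefSeq, build GRCm38.p6, 5′ to 3′ on the gene's strand, with the matched motif in capitals. Cxcl10 (chr5:92348890-92349139, minus strand) and Sirpb1b (chr3:15575066-15575315, minus strand) hold an interferon-stimulated response element, ISRE, searched as GAAANNGAAA. Cd72 (chr4:43454627-43454876, minus strand) and Vav1 (chr17:57278850-57279099, plus strand) hold a PU.1 site, searched as GAGGAAGT, Cd72 on the opposite strand. Il6 (chr5:30012864-30013113, plus strand) holds an NF-kB site, searched as GGGANNTTCC, and Mylk4 (chr13:32783965-32784214, minus strand) a MEF2 site. In the Cxcl10 and Il6 windows other motifs of the search were also present, an AP-1 site and a CCAAT box in both and an NF-kB site in Cxcl10. Sirpb1b also held a CHR element, and Mylk4 a CHR element and a CCAAT box. The genes shown were chosen after their changes and matches were known.
Cxcl10: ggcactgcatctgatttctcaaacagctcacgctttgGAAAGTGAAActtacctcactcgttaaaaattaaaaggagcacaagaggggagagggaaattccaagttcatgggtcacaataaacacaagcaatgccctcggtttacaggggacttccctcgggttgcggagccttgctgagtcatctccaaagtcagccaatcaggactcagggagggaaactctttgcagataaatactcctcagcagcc
Sirpb1b: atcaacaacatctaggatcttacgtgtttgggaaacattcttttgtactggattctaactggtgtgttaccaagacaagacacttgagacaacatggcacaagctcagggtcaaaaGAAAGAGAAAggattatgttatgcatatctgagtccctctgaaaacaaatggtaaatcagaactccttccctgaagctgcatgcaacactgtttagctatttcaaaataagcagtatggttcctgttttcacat
Cd72: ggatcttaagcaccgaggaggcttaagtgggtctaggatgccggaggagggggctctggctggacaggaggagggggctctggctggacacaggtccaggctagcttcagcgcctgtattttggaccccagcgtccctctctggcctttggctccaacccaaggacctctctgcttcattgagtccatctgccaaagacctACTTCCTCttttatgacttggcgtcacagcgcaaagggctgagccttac
Vav1: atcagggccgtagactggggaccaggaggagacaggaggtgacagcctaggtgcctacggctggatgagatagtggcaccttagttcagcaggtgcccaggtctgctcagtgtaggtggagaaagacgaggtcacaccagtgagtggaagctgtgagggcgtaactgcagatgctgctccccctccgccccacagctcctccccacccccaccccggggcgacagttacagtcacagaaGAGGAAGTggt
Il6: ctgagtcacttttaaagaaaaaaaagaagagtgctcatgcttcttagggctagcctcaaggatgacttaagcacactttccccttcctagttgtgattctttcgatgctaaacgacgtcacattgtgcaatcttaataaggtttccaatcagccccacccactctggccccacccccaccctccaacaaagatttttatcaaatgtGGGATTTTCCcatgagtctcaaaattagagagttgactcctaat
Mylk4: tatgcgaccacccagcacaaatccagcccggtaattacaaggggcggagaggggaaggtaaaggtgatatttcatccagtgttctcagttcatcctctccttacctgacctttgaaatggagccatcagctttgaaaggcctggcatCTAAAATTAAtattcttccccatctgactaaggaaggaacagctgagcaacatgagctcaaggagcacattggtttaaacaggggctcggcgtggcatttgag

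Each motif was counted on both strands in the same window of the 12306 tested genes that have one, of which 1471 were at least 2-fold higher and 1377 at least 2-fold lower. The ISRE was in 5.85% of promoters of the higher genes, 1.96% of the lower and 2.76% of all tested. The PU.1 site was in 4.62%, 1.45% and 2.41% in that order. The NF-kB site was in 1.77%, 0.87% and 1.23%. For the MEF2 site the order turned: 1.09% of higher, 2.90% of lower and 1.27% of all tested. The CArG box, the serum response factor's site, was in 1.09%, 2.40% and 1.32%. The AP-1 site TGANTCA was in 7.27%, 6.46% and 4.92%, the CRE TGACGTCA in 1.77%, 1.53% and 2.50%, and the E2F site TTTCCCGC in 1.22%, 1.38% and 1.59%. Among short motifs, the TATA box TATAAA was in 10.3%, 13.3% and 8.11%, the CHR element TTTGAA in 13.3%, 14.4% and 11.3%, and the CCAAT box in 33.3%, 36.5% and 35.9%. Motifs were counted separately, also where they overlap. These shares are descriptions of letters in a window and were not tested.

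**Figure D3:**
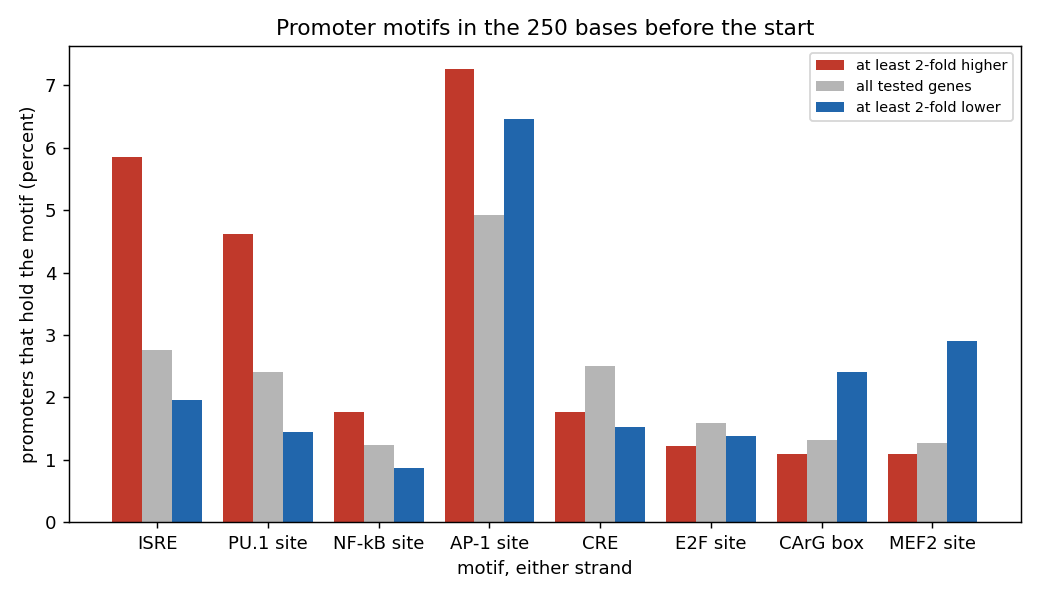
Share of promoters (y axis, percent) that hold each motif (x axis) on either strand, with red bars for genes called at least 2-fold higher, grey for all tested genes and blue for genes called at least 2-fold lower. The ISRE and PU.1 site are more frequent in the higher genes than in the other sets, at 5.85% and 4.62%, and the MEF2 site and CArG box in the lower genes, at 2.90% and 2.40%.

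Some genes moved in a step between the groups. At 88 genes the lowest CaCl2 array exceeded the highest sham array by over 3 log2 units. This rule measures the gap alone, and some of the 88 genes, such as Il6, spread widely inside a group. The genes named next had little spread. Rlf, a zinc finger protein, was -2.78, -2.83 and -2.84 without and 1.22, 1.07 and 1.14 with CaCl2, and its change, 3.96 ± 0.12 (SE, adjusted p = 0.000156), had the smallest SE for its size of all increases. Psap, the precursor of the saposins that help lysosomal enzymes degrade sphingolipids, was 0.42, 1.18 and 0.84 after sham surgery and 5.55, 5.68 and 5.81 after CaCl2 and rose by 4.87 ± 0.21 (SE, adjusted p = 0.000156). Dok1, an adaptor that restrains tyrosine kinase signalling, was -1.62, -1.61 and -1.36 in sham and 2.44, 2.38 and 2.70 in CaCl2 aortas and rose by 4.04 ± 0.15 (SE, adjusted p = 0.000156). Cd82, a tetraspanin, was 0.19, 0.75 and 0.83 without and 4.67, 4.73 and 5.01 with CaCl2 and rose by 4.21 ± 0.21 (SE, adjusted p = 0.000159).

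At 15 of the 88 step genes, the third array of the CaCl2 plus IgG group lay within 1 log2 unit of a sham value, and its 2 companions did so at 0 of 88. It was at -3.03 for Rlf, 0.60 for Psap, -0.69 for Dok1 and 0.69 for Cd82, while the other 2 arrays of that group were at 5.60 and 5.44 for Psap. Dpt, a matrix protein that binds decorin, was -0.50, -0.52 and -1.11 after sham surgery and 4.55, 4.15 and 3.91 after CaCl2 and 0.25 on that array. The linker histone gene H1f0 was at least 5.13-fold higher with CaCl2 (adjusted p = 0.000156) and was -6.53 on that array. So 5 of the 6 arrays of mice given CaCl2 were high at these 15 genes and 1 was low. Ltbp2, a matrix protein that binds fibrillin, also moved with little spread, from 2.88, 2.81 and 3.02 to 6.99, 6.51 and 6.95.

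**Figure D4:**
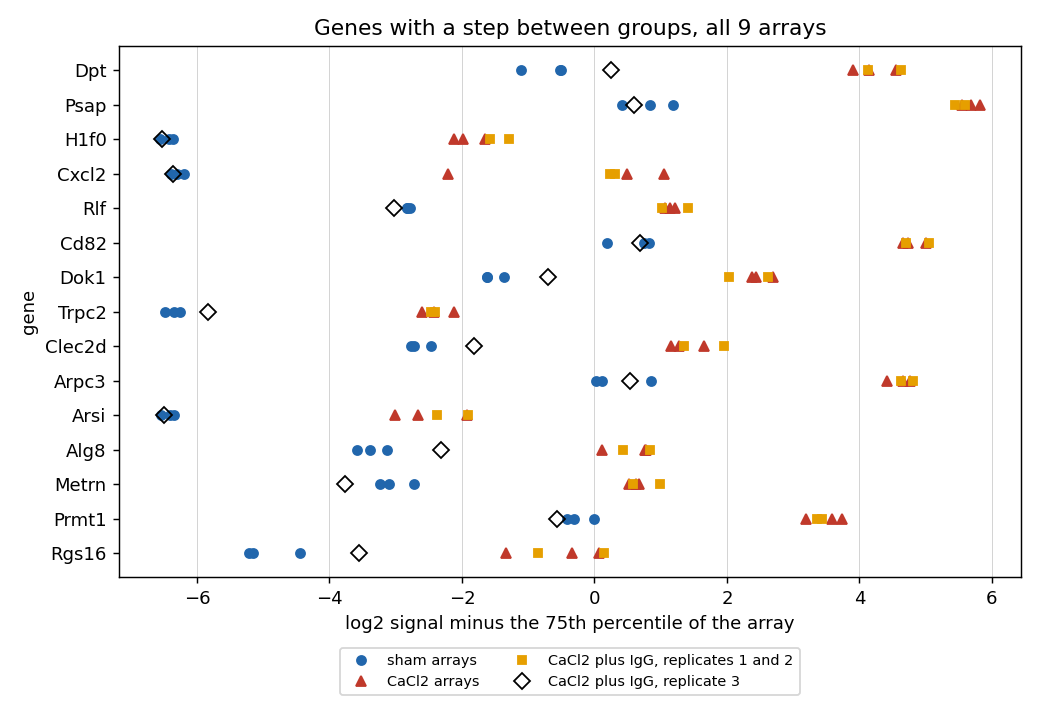
Value on each of the 9 arrays (x axis, log2 signal minus the 75th percentile of the array) of the 15 genes at which the CaCl2 arrays exceeded the sham arrays by over 3 log2 units and the third CaCl2 plus IgG array lay with sham. Open diamonds mark that array. They fall among or next to the circles of the sham arrays, while squares of the other 2 CaCl2 plus IgG arrays fall with the triangles of the CaCl2 arrays.

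Signalling genes were read through lists of pathway members. Counts of list members here and below are to be read beside the shares over all tested genes, 18.6% higher and 23.2% lower. Of 16 measured NF-kB subunits and feedback inhibitors, 10 were higher and 0 lower, with a median change of 0.86. The leading ones were inhibitors or partners that NF-kB itself induces: Nfkbie, an inhibitor of nuclear entry, was -1.66, -1.42 and -1.56 in sham and 0.92, 0.96 and 1.79 in CaCl2 aortas, a change of 2.77 ± 0.25 (SE, adjusted p = 0.000707). Bcl3, a nuclear coactivator of the p50 and p52 subunits, was -0.37, -0.19 and -0.22 without and 2.51, 1.86 and 2.57 with CaCl2, a change of 2.58 ± 0.21 (SE, adjusted p = 0.000575). The deubiquitinase gene Tnfaip3 (2.50 ± 0.34) and Traf1 (2.38 ± 0.21) rose too. Of 19 JAK-STAT genes, 10 were higher and 0 lower, with a median of 0.94. Under median scaling 18 were higher. Stat4 (2.49 ± 0.30), Tyk2 (2.21 ± 0.40) and Jak3 (1.72 ± 0.19) followed Socs3. Of 8 markers of T and NK cells, 4 were higher and 0 lower, with means of -1.88, -2.28 and -2.50 in sham aortas and -0.73, -0.795 and 0.27 after CaCl2, and their part in these increases was not tested. Without sham replicate 1, 6 NF-kB genes were called higher. With the row of the slide as a block, the JAK-STAT median was 0.91.

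Dual specificity phosphatases, which switch off MAP kinases, split by member. Dusp2, known from activated leukocytes, was -1.16, -1.78 and -2.60 after sham surgery and 2.03, 1.39 and 2.49 after CaCl2 and rose by 3.82 ± 0.42 (SE, adjusted p = 0.0012), and Dusp6, specific for ERK, by 1.54 ± 0.26 (SE, adjusted p = 0.00469). Dusp8 (-1.78 ± 0.23) and Dusp27 (-1.68 ± 0.28), a muscle protein, fell. Over 16 measured members, 6 were higher and 3 lower. In the PI3K list of 23 genes, 8 were higher and 3 lower with a median of 0.01, or 12 and 0 under median scaling. The leukocyte catalytic subunit Pik3cd was -1.17, -0.91 and -1.21 in sham and 0.69, 0.72 and 1.61 in CaCl2 aortas and rose by 2.10 ± 0.27 (SE, adjusted p = 0.00175). The phosphatase Inpp5d (2.03 ± 0.27) and the regulatory subunit Pik3r3 (2.54 ± 0.16) rose as well, with Pik3r3 at -0.86 on the third CaCl2 plus IgG array against -1.39, -1.69 and -1.79 in sham aortas.

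Actin regulators of leukocytes had the highest median of the pathway lists, with 16 of 24 higher, 3 lower and a median of 2.22. Vav1, an exchange factor that activates Rac, was 0.34, 0.72 and -0.23 without and 3.13, 3.12 and 3.71 with CaCl2, a change of 3.05 ± 0.28 (SE, adjusted p = 0.000749). Coro1a, which remodels actin in leukocytes, was 2.09, 2.25 and 1.23 after sham surgery and 4.45, 4.41 and 5.35 after CaCl2, a change of 2.88 ± 0.36 (SE, adjusted p = 0.00161). Cyth4 (2.54 ± 0.20), Lcp1 (2.71 ± 0.52) and Arhgap25 (2.52 ± 0.36) rose beside them, and each group of arrays stood apart at all 5. Of 8 measured macrophage markers, 7 were higher, with the means given above. Their part in these increases was not tested. Rhoh (-0.996 ± 0.18) and Cdc42se1 (-0.92 ± 0.18) were lower, calls that were lost under median scaling, and 1 of 3 Cdc42se1 probes changed the other way.

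**Figure D5:**
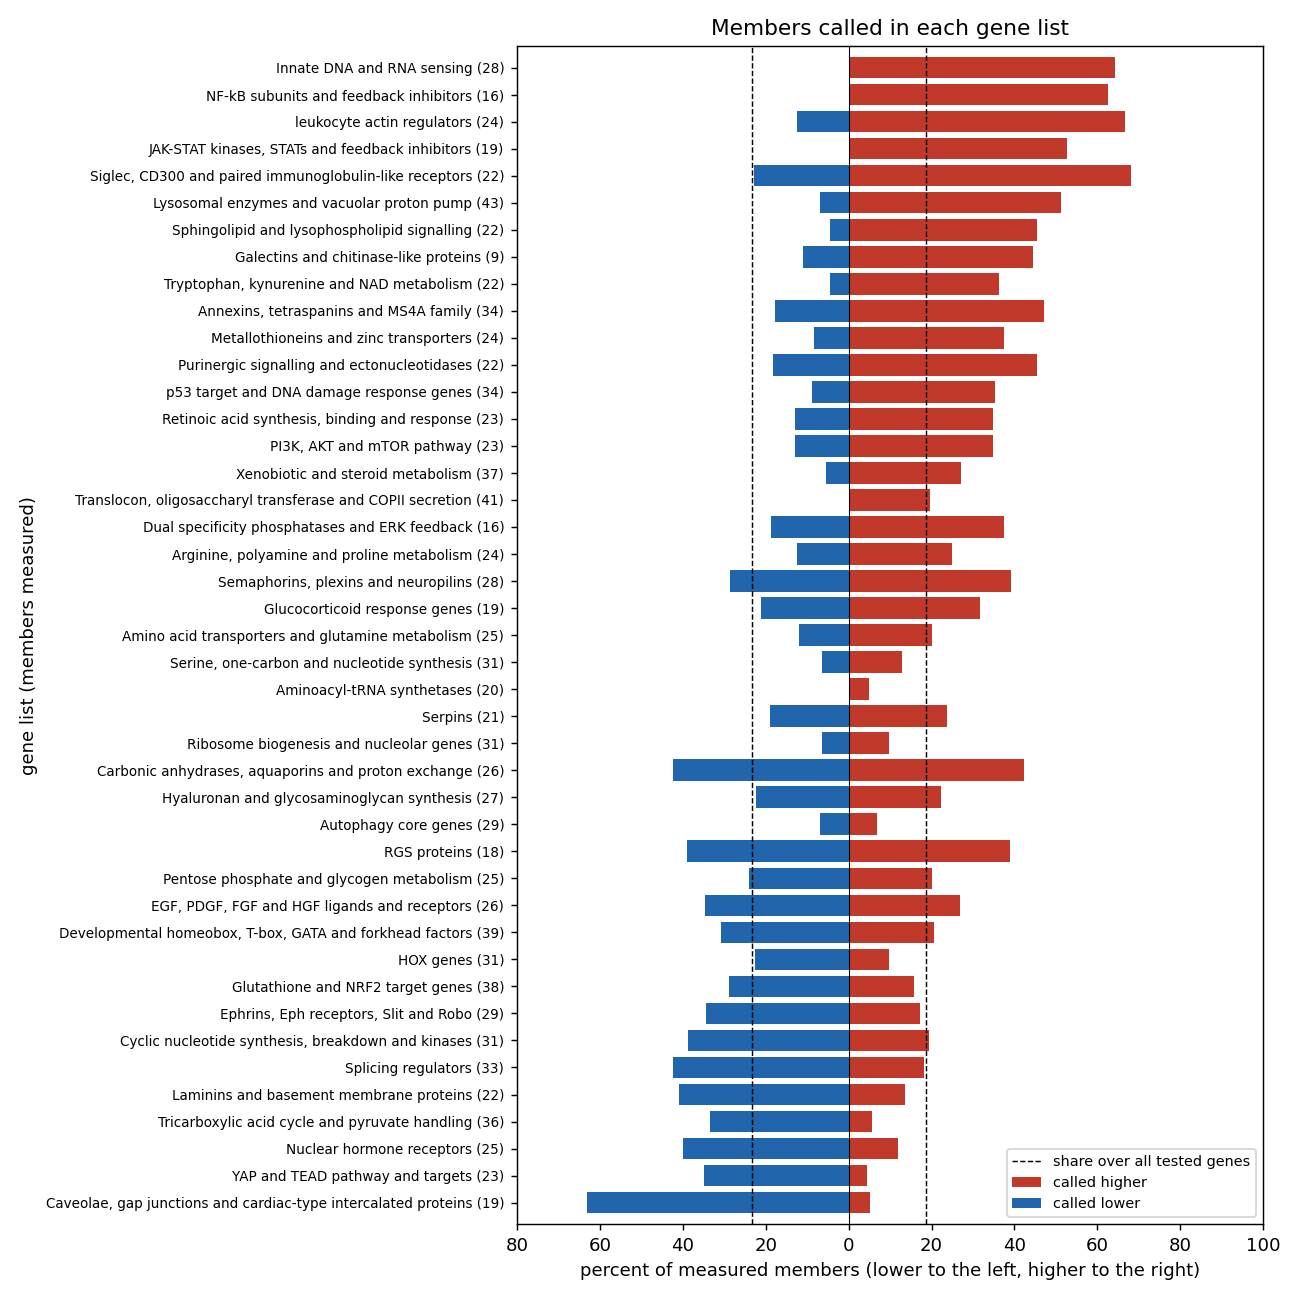
Share of each list's measured members (x axis, percent; number measured beside the list's name on the y axis) called higher with CaCl2, drawn to the right, or lower, drawn to the left, with dashed lines at the shares over all tested genes, 18.6% and 23.2%. Lists at the top, such as innate sensing with 18 of 28 members higher, extend past the right line, and the caveolae and gap junction list at the bottom, with 12 of 19 members lower, extends furthest past the left one.

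Surface receptors that couple to tyrosine-based inhibitory or activating motifs were mostly higher, 15 of 22, with 5 lower and a median of 1.70. Sirpb1a was -1.20, -1.37 and -2.84 in sham and 1.65, 1.35 and 2.15 in CaCl2 aortas, a change of 3.52 ± 0.45 (SE, adjusted p = 0.00181), and the inhibitory receptors Pilra (3.21 ± 0.47) and Lilrb4a (2.98 ± 0.49) rose with it, though 1 of 4 Pilra probes changed the other way. Cd300a ran against the list: it was 0.16, 0.08 and 0.78 without and -2.42, -2.22 and -1.59 with CaCl2, a change of -2.42 ± 0.28 (SE, adjusted p = 0.00137), and 0.03 on the third CaCl2 plus IgG array. Cd300lg, known from endothelium, was also lower (-1.73 ± 0.14).

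Among 22 purinergic genes, which sense ATP and adenosine or break them down, 10 were higher and 4 lower, with a median of 0.62. Adora2b, an adenosine receptor, was -2.59, -2.82 and -2.54 after sham surgery and -0.16, -0.18 and -0.13 after CaCl2, a change of 2.49 ± 0.13 (SE, adjusted p = 0.000183). Panx1, a channel that releases ATP, rose by 2.04 ± 0.27 (SE, adjusted p = 0.00188). P2ry10 rose by 4.23 ± 0.52 (SE, adjusted p = 0.00155) and was above background on 2 of the 3 sham arrays. The ATP-gated channel of smooth muscle, P2rx1, went the other way at 4.88, 5.29 and 5.43 in sham and 2.89, 3.55 and 2.36 in CaCl2 aortas, a change of -2.26 ± 0.32 (SE, adjusted p = 0.00233). P2rx5 (-1.77 ± 0.16) and the ectonucleotidase Entpd1 (-1.08 ± 0.15) were lower too. Of 22 lysophospholipid and sphingolipid genes, 10 were higher, 1 lower and 11 not called, with a median of 0.55. Enpp2, which makes lysophosphatidic acid, was 1.09, 0.71 and 0.36 without and 3.02, 3.38 and 4.39 with CaCl2 and rose by 2.88 ± 0.37 (SE, adjusted p = 0.00181). The receptor S1pr2 (2.25 ± 0.17) and the lyase Sgpl1 (1.75 ± 0.19) followed, with S1pr2 at -1.06 on the third CaCl2 plus IgG array against -1.48, -1.76 and -1.87 in sham aortas.

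Innate sensors of nucleic acids had 18 of 28 members higher and 0 lower, with a median of 1.25. Irf5, a transcription factor downstream of Toll-like receptors, was -1.15, -0.51 and -1.85 after sham surgery and 1.43, 1.51 and 2.25 after CaCl2, a change of 2.90 ± 0.38 (SE, adjusted p = 0.00186). Irf8, which directs monocyte development, was 0.64, 0.95 and -0.35 in sham and 2.92, 2.90 and 3.95 in CaCl2 aortas, a change of 2.84 ± 0.42 (SE, adjusted p = 0.00273). Ifi211 (2.24 ± 0.33) rose, and Aim2, a sensor of cytosolic DNA, was at least 1.78-fold higher (adjusted p = 0.00105), a call lost after normexp background correction (adjusted p = 0.519). The general adaptors and factors Mavs (-0.32), Irf3 (-0.01) and Trex1 (0.29) were not called.

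Lysosomal genes had 22 of 43 members higher and 3 lower, with a median of 0.60, or 36 and 0 under median scaling. Mcoln1, a calcium channel of the lysosome membrane, was 0.85, 0.77 and 0.52 without and 3.24, 3.27 and 3.43 with CaCl2, a change of 2.60 ± 0.14 (SE, adjusted p = 0.000199). Gpnmb, a glycoprotein of lipid-laden macrophages, was 2.37, 3.58 and 1.68 after sham surgery and 5.36, 5.12 and 5.09 after CaCl2, a change of 2.64 ± 0.45 (SE, adjusted p = 0.00447). Of the proton pump genes, Atp6v1b2 (1.38 ± 0.25) and Tcirg1 (1.28 ± 0.21) rose, as did Atp6v0d2, a subunit of macrophages and osteoclasts (2.58 ± 0.66), whose call was lost without CaCl2 replicate 1 (adjusted p = 0.0595) or 3 (adjusted p = 0.0554). Of 29 core autophagy genes, 2 were higher and 2 lower with a median of 0.00, fewer than the shares over all genes, but under median scaling 13 (44.8%) were higher and 0 lower, near the 42.2% over all genes. In the annexin, tetraspanin and MS4A list, 16 of 34 were higher and 6 lower, or 21 and 1 under median scaling, and Ms4a7 (2.90 ± 0.47) stood beside Anxa8 and Cd82. Tspan2, a tetraspanin of smooth muscle, was lower (-1.52 ± 0.18).

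Genes of the p53 and DNA damage response were higher at 12 of 34 and lower at 3, with a median of 0.47, or 25 and 0 under median scaling. Bax, which opens the outer mitochondrial membrane in apoptosis, was 0.58, -0.41 and -0.80 in sham and 3.08, 2.86 and 3.05 in CaCl2 aortas, a change of 3.21 ± 0.34 (SE, adjusted p = 0.00108). Cdkn2a, which encodes the cell cycle inhibitors p16 and ARF, was at least 8.35-fold higher (adjusted p = 0.00128), at -1.12, -1.91 and -0.62 on the CaCl2 arrays. Plk2 rose by 1.88 ± 0.22 (SE, adjusted p = 0.00144) and Gadd45a by 1.75 ± 0.35 (SE, adjusted p = 0.00811). Pmaip1, which encodes the apoptosis inducer NOXA, rose by 3.54 ± 0.66 (SE, adjusted p = 0.00632) and was above background on 2 of the 3 sham arrays. Of 6 cycling cell markers, 5 were higher, with means of -2.49, -2.11 and -2.92 in sham aortas and -0.78, -0.97 and 0.09 after CaCl2. Their part in this list was not tested.

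In central metabolism the tricarboxylic acid cycle list had 2 of 36 members higher and 12 lower with a median of -0.25, but under median scaling 6 were higher and 2 lower, with a median of 0.29. The outlier was Acod1, which makes itaconate from a cycle intermediate in activated macrophages: it was -3.75, -3.54 and -3.80 without and -1.20, -0.39 and 1.30 with CaCl2, a change of 3.60 ± 0.58 (SE, adjusted p = 0.00383). Me3, a mitochondrial malic enzyme, was 0.77, 0.61 and 0.64 after sham surgery and -0.68, -0.82 and -0.81 after CaCl2, a change of -1.44 ± 0.12 (SE, adjusted p = 0.000642). Pdk4, a kinase that shuts pyruvate dehydrogenase, changed by -1.92 ± 0.30 (SE, adjusted p = 0.00351), a call lost with all 9 arrays in 1 fit, with the third CaCl2 plus IgG array at 3.53 beside 3.06, 3.76 and 3.75 in sham aortas. Of the enzymes of the cycle itself, Suclg2 (-0.92 ± 0.21) and Idh2 (-0.73 ± 0.18) were lower, and Cs (-0.18) and Sdha (-0.09) were not called. Under median scaling Suclg2 (-0.38, adjusted p = 0.221) and Idh2 (-0.19, adjusted p = 0.465) were not called either. The Idh2 call was also lost without sham replicate 2 or CaCl2 replicate 1. Idh1, the cytosolic isocitrate dehydrogenase, was higher (0.53 ± 0.15), a call lost without sham replicate 2 or 3 or CaCl2 replicate 1, 2 or 3.

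Tkt, the transketolase of the pentose phosphate pathway, was 0.58, 0.57 and 0.17 in sham and 4.41, 4.67 and 4.98 in CaCl2 aortas, a change of 4.25 ± 0.20 (SE, adjusted p = 0.000156), the largest in its list, with the third CaCl2 plus IgG array at 1.77, while Pgd (0.99 ± 0.18) and glycogen phosphorylase of liver type, Pygl (1.08 ± 0.19), rose less and Pygm, the muscle form, fell (-1.45 ± 0.18). Nos2, the inducible nitric oxide synthase, was -2.30, -2.34 and -1.53 without and 0.46, 0.45 and 1.23 with CaCl2, a change of 2.77 ± 0.31 (SE, adjusted p = 0.0012). Arg1, which competes with it for arginine, was at least 10.4-fold higher (adjusted p = 0.0139) but spread, at -1.79, -2.30 and 1.38. Its call was lost after normexp background correction (adjusted p = 0.0662). Kynurenine and NAD genes were higher at 8 of 22 and lower at 1, led by Bst1 (2.85 ± 0.33), Qprt (1.997 ± 0.15) and Kmo (1.91 ± 0.40). The higher count was 5 without CaCl2 replicate 2.

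Glutathione and NRF2 genes were higher at 6 of 38 and lower at 11, a split that median scaling turned to 18 higher and 2 lower. The lower count was 5 without sham replicate 2 and 7 without sham replicate 1, CaCl2 replicate 1 or CaCl2 replicate 3. Among the 6 higher members were the NRF2 targets Srxn1 (0.93 ± 0.12), Txnrd1 (0.62 ± 0.13) and Prdx1 (0.72 ± 0.16) and the transferase genes Mgst2 and Gsto1. The calls of Mgst2 and Gsto1 were lost when some 1 array was left out. Among the 11 lower members were the glutathione transferase genes Gstm1, Gstm4, Gstm7 and Gstk1 and the membrane form Mgst3 (-1.16 ± 0.18). Under median scaling Gstm1 (-0.69), Gstm4 (-0.65) and Gstk1 (-0.56) were not called. Txnrd1 on the third CaCl2 plus IgG array was at 2.43, against 2.44, 2.66 and 2.42 in sham aortas, and Srxn1 at 2.65, against 2.33, 2.48 and 2.30. Of 37 genes of xenobiotic and steroid metabolism, 10 were higher, 2 lower and 25 not called, with a median of -0.26, or 0.28 under median scaling. The lower ones were the alcohol dehydrogenase gene Adh7 (-1.40 ± 0.40) and the glucuronosyltransferase gene Ugt1a6a (-1.07 ± 0.23, with the third CaCl2 plus IgG array at -0.49). Both calls were lost under median scaling (adjusted p = 0.0885 and 0.0734), and that of Ugt1a6a with all 9 arrays in 1 fit (adjusted p = 0.14). The Adh7 call was also lost without sham replicate 1, 2 or 3 or CaCl2 replicate 1 or 3. Among the higher ones, Ch25h, which hydroxylates cholesterol, was -2.49, -3.08 and -3.80 after sham surgery and 0.21, -0.33 and 1.09 after CaCl2, a change of 3.45 ± 0.45 (SE, adjusted p = 0.00183), and Cyp7b1, which acts on its product, was -1.75, -2.54 and -2.42 in sham and 1.04, 0.57 and 1.14 in CaCl2 aortas, a change of 3.16 ± 0.26 (SE, adjusted p = 0.000575). The aryl hydrocarbon receptor gene Ahr rose by 2.57 ± 0.20 (SE, adjusted p = 0.000501).

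Lists of general cell upkeep held smaller shares of called members than the 41.8% over all genes, which median scaling changed. Of 20 aminoacyl-tRNA synthetases, 1 was higher (Nars, 2.02 ± 0.36, with the third CaCl2 plus IgG array at 0.10 near the sham values of 0.41, -0.68 and -0.90) and 0 lower. One-carbon and nucleotide synthesis had 4 of 31 higher and 2 lower, ribosome biogenesis 3 of 31 higher and 2 lower, and the translocon and secretion list 8 of 41 higher and 0 lower. Medians were 0.01, 0.01, -0.00 and 0.17 in that order. Under median scaling 12, 14, 11 and 26 members of these lists were higher, shares of 60.0%, 45.2%, 35.5% and 63.4% against 42.2% over all genes. The higher count of the secretion list was 4 without sham replicate 1 or 3 or CaCl2 replicate 1 or 3. Myc, which drives many of these genes, rose by 1.78 ± 0.27 (SE, adjusted p = 0.00302). Of 25 amino acid transporter and glutamine genes, 5 were higher and 3 lower, or 10 and 1 under median scaling. Asns, which makes asparagine, rose by 1.62 ± 0.30 (SE, adjusted p = 0.00663), and the amino acid transporter genes Slc7a7 (1.29 ± 0.23), Slc7a8 (1.26 ± 0.27) and Slc43a1 (2.05 ± 0.34) were higher. The transporter genes Slc7a10 (-2.78 ± 0.76, above background on 2 of the 3 CaCl2 arrays) and Slc6a9 (-0.79 ± 0.18) were lower. The Slc7a10 call was lost without sham replicate 1, 2 or 3 or CaCl2 replicate 1 or 3. That of Slc6a9 was lost under median scaling (adjusted p = 0.326).

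Genes of the smooth muscle membrane formed the pathway list with the lowest median. Of 19 caveolae, gap junction and intercalated disc genes, 12 were lower and 1 higher with a median of -1.07, and the median stayed below 0, at -0.53, under median scaling. Cav1, the coat protein of caveolae, was 1.997, 1.80 and 1.66 without and 0.25, 0.60 and 0.09 with CaCl2, a change of -1.51 ± 0.18 (SE, adjusted p = 0.00144). Bves, a cyclic AMP-binding membrane protein of muscle, was 0.89, 1.18 and 1.17 after sham surgery and -1.96, -0.90 and -2.06 after CaCl2, a change of -2.72 ± 0.32 (SE, adjusted p = 0.00138). Dsp, which anchors desmosomes, was -0.29, 0.14 and -0.63 in sham and -3.52, -2.43 and -2.79 in CaCl2 aortas, a change of -2.66 ± 0.32 (SE, adjusted p = 0.00151). All 6 smooth muscle markers measured were lower, with the means given above, and their part in these decreases was not tested.

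Cyclic nucleotide genes, which relax smooth muscle, were lower at 12 of 31 and higher at 6 with a median of -0.35, which became 0.19 under median scaling. Gucy1b1, a subunit of the nitric oxide receptor, was 3.55, 3.87 and 3.68 without and 1.86, 2.54 and 1.62 with CaCl2, a change of -1.70 ± 0.25 (SE, adjusted p = 0.00281). Adcy5, an adenylyl cyclase of heart and muscle, was 4.85, 4.72 and 5.33 after sham surgery and 3.18, 3.55 and 2.60 after CaCl2, a change of -1.86 ± 0.28 (SE, adjusted p = 0.0029), and Adcy1 changed by -2.19 ± 0.18 (SE, adjusted p = 0.000566). Pde2a (1.14 ± 0.18) and Pde1b (0.84 ± 0.15), which break cyclic nucleotides down, were higher.

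RGS proteins, which shorten G protein signals, split evenly, with 7 of 18 higher and 7 lower, or 10 and 6 under median scaling. The lower ones were known from muscle and nerve: Rgs4 was 2.73, 2.88 and 3.10 in sham and 0.44, 0.71 and -0.21 in CaCl2 aortas, a change of -2.59 ± 0.25 (SE, adjusted p = 0.000861). Rgs5, a marker of pericytes and arterial smooth muscle, was 6.91, 6.96 and 6.40 without and 4.83, 5.48 and 5.27 with CaCl2, a change of -1.56 ± 0.23 (SE, adjusted p = 0.00273), and Rgs7 changed by -2.72 ± 0.21 (SE, adjusted p = 0.000506). Among the higher ones, Rgs1, known from activated lymphocytes and myeloid cells, was -0.24, 0.28 and -1.24 after sham surgery and 4.02, 1.98 and 3.93 after CaCl2, a change of 3.70 ± 0.63 (SE, adjusted p = 0.00448). Rgs14 (2.17 ± 0.38) and Rgs10 (1.52 ± 0.27) rose, and Rgs16 was at least 13.4-fold higher (adjusted p = 0.000657), with the third CaCl2 plus IgG array at -3.56 against -5.22, -5.16 and -4.45 in sham aortas.

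Splicing regulators were lower at 14 of 33 and higher at 6 with a median of -0.33, or 0.20 under median scaling, and the lower count was 8 without sham replicate 2 and 9 without CaCl2 replicate 1 or 2. The lower ones included Rbpms, a splicing factor of smooth muscle, at 4.66, 4.79 and 5.04 in sham and 2.27, 2.85 and 2.18 in CaCl2 aortas, a change of -2.40 ± 0.22 (SE, adjusted p = 0.000692), and its relative Rbpms2 (-1.89 ± 0.33). Srsf5, a serine and arginine-rich factor, was 1.73, 1.73 and 1.93 without and 3.98, 4.08 and 4.16 with CaCl2, a change of 2.28 ± 0.13 (SE, adjusted p = 0.000228), and lay at 2.14 on the third CaCl2 plus IgG array. Quaking, Qk, gave no single direction, since 4 of its 5 probes changed against the brightest.

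Water and ion transport genes changed in both directions, with 11 of 26 higher and 11 lower, or 13 and 6 under median scaling. The water channels Aqp1, at 2.70, 2.39 and 2.81 after sham surgery and 5.31, 4.80 and 4.90 after CaCl2, a change of 2.37 ± 0.19 (SE, adjusted p = 0.000566), and Aqp3, at least 6.14-fold higher (adjusted p = 0.00377), rose. Aqp1 was at 3.36 on the third CaCl2 plus IgG array. Aqp5 rose by 3.92 ± 0.34 (SE, adjusted p = 0.000651) and was above background on 1 of the 3 sham arrays. The bicarbonate transporter genes Slc4a4 (-1.64 ± 0.21) and Slc4a3 (-1.28 ± 0.20) were lower, and Car8 fell by a change of -2.41 ± 0.51 (SE, adjusted p = 0.0101) with 1 of the 3 CaCl2 arrays above background. Of the zinc transporters, Slc39a4 rose most (2.28 ± 0.23), and Atp7b, a copper pump, was lower (-1.62 ± 0.25) with the third CaCl2 plus IgG array at -2.36, against -2.70, -2.36 and -2.04 in sham aortas.

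Guidance and growth factor genes also divided. Of 28 semaphorin and plexin genes, 11 were higher and 8 lower, or 14 and 4 under median scaling. The immune semaphorins Sema4d (2.04 ± 0.27) and Sema7a (2.04 ± 0.23) and the receptors Plxnc1 (2.12 ± 0.26) and Nrp2 (2.23 ± 0.19) rose. Secreted class 3 members fell: Sema3c was 3.54, 3.94 and 3.65 in sham and 1.09, 1.84 and 1.40 in CaCl2 aortas, a change of -2.26 ± 0.22 (SE, adjusted p = 0.000892), and Sema3a (-1.40 ± 0.14) and Sema3d (-1.49 ± 0.18) followed. Of 29 ephrin, Eph, Slit and Robo genes, 5 were higher and 10 lower, counts that median scaling turned to 12 and 3. Robo1 (1.67 ± 0.18) and Robo4 (1.54 ± 0.18) rose while Efna5 (-1.16 ± 0.14) and Ntn1 (-1.04 ± 0.14) fell.

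In the EGF, PDGF, FGF and HGF list, 7 of 26 were higher and 9 lower, or 11 and 5 under median scaling. Hgf, the ligand of MET, was -1.92, -2.84 and -2.48 without and -0.49, -0.95 and 0.00 with CaCl2, a change of 1.94 ± 0.32 (SE, adjusted p = 0.00395). Fgf18, a growth factor of bone and cartilage, was -0.19, -0.03 and 0.17 after sham surgery and 2.42, 1.46 and 2.33 after CaCl2, a change of 2.09 ± 0.27 (SE, adjusted p = 0.00188). Pdgfd went down, 1.04, 1.07 and 0.69 in sham and -0.63, -0.45 and -1.11 in CaCl2 aortas, a change of -1.66 ± 0.21 (SE, adjusted p = 0.00171), while Pdgfb (1.11 ± 0.19) and Pdgfc (1.08 ± 0.16) were higher. The YAP and TEAD list had 1 of 23 higher and 8 lower with a median of -0.15, but 8 higher and 1 lower under median scaling. Its lower count was 4 without sham replicate 2 or CaCl2 replicate 1 and 5 without sham replicate 3.

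Among matrix genes, Has1, a hyaluronan synthase, was -3.94, -4.68 and -3.94 without and 0.99, -0.75 and 1.62 with CaCl2 and rose by 4.81 ± 0.59 (SE, adjusted p = 0.00155), above background on 2 of the 3 sham arrays. The genes of 2 proteins that bind hyaluronan, Tnfaip6 (2.34 ± 0.46) and the receptor Cd44 (1.77 ± 0.28), rose. Hyal1, which degrades hyaluronan, was lower (-1.57 ± 0.28). Over the 27 measured genes of glycosaminoglycan synthesis, 6 (22.2%) were higher and 6 (22.2%) lower, near the 18.6% and 23.2% over all tested genes. Under median scaling 12 (44.4%) were higher and 2 (7.41%) lower, near the 42.2% and 9.75% over all tested genes. Laminin and basement membrane genes were higher at 3 of 22 and lower at 9 with a median of -0.36, or 0.17 under median scaling. Lamb1 was 0.74, 0.83 and 0.65 after sham surgery and 2.82, 2.47 and 2.76 after CaCl2, a change of 1.94 ± 0.15 (SE, adjusted p = 0.000482), against Npnt, an integrin ligand, at 2.16, 2.55 and 2.42 in sham and -0.18, 0.54 and -0.36 in CaCl2 aortas, a change of -2.38 ± 0.26 (SE, adjusted p = 0.00114). Serpina3n, a secreted protease inhibitor, was 1.45, 1.25 and 0.96 without and 4.13, 3.48 and 3.29 with CaCl2 and rose by 2.41 ± 0.25 (SE, adjusted p = 0.00104), while Serpini1 fell (-1.62 ± 0.26).

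Transcription factors of development and hormone response were read in 3 lists, with 40.0% of nuclear receptors, 22.6% of HOX genes and 30.8% of other developmental factors lower, against 23.2% over all genes. Median scaling turned the balance of all 3, as it did over all genes. Nuclear receptors were higher at 3 of 25 and lower at 10, and 9 and 2 under median scaling. The lower count was 6 without sham replicate 1 and 4 without CaCl2 replicate 1. Vdr, the vitamin D receptor, was at least 6.64-fold higher (adjusted p = 0.00222), at -1.70, -2.22 and -0.71, and Pgr was the largest decrease. HOX genes were higher at 3 of 31 and lower at 7, and 12 and 5 under median scaling. Hoxa9 (-1.19 ± 0.17) and Hoxb8 (-2.01 ± 0.34) were lower. Of 39 homeobox, T-box, GATA and forkhead factors, 8 were higher and 12 lower, and 11 and 5 under median scaling. Meox1, a homeobox factor of somites and activated fibroblasts, was -2.01, -1.89 and -2.01 after sham surgery and 0.69, 0.50 and 0.42 after CaCl2, a change of 2.50 ± 0.13 (SE, adjusted p = 0.000183), and Snai1 (1.89 ± 0.28) and Gata3 (1.30 ± 0.21) rose, while Tbx18, a factor of mural cells, was lower, at 1.11, 1.02 and 0.96 in sham and -0.22, -0.36 and -0.37 in CaCl2 aortas, a change of -1.35 ± 0.13 (SE, adjusted p = 0.000749).

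Retinoic acid genes were higher at 8 of 23 and lower at 3, or 12 and 1 under median scaling. Crabp2, which carries retinoic acid to its receptor, was 0.41, 0.23 and 0.69 without and 3.35, 2.51 and 4.21 with CaCl2, a change of 2.91 ± 0.41 (SE, adjusted p = 0.00235). The retinaldehyde dehydrogenase Aldh1a2 rose (1.92 ± 0.44), and Stra6, which takes up retinol, rose by 4.38 ± 0.65 (SE, adjusted p = 0.00279) and was above background on 1 of the 3 sham arrays. Rbp4, the carrier of retinol in blood, was lower (-1.91 ± 0.30). Glucocorticoid response genes were higher at 6 of 19 (31.6%) and lower at 4 (21.1%), against 18.6% and 23.2% over all tested genes. Under median scaling 11 were higher and 3 lower. Lcn2 (1.95 ± 0.32) and Ddit4 (1.76 ± 0.29) rose and Zbtb16 (-2.07 ± 0.29) fell. On the third CaCl2 plus IgG array, Ddit4 was 3.52 and Zbtb16 4.49, against 3.36, 3.37 and 3.64 and 4.30, 5.20 and 5.30 in sham aortas.

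Some genes spread widely among the CaCl2 arrays. Fosb, an immediate early gene, was 5.30, 0.80 and 5.69 with CaCl2 and 0.31, 0.13 and 0.42 without, so the second CaCl2 array was near sham and the other 2 were far above it. The third CaCl2 plus IgG array was near sham too, at 0.43, and its 2 companions were at 5.01 and 4.43. That array was also the lowest of its group for Il6 and Socs3. Cd209e, Ccl1 and Ubd were highest on the third CaCl2 array, at -3.68, -3.81 and 0.85 for Cd209e, -4.14, -3.38 and 0.21 for Ccl1 and -1.54, -2.93 and 1.52 for Ubd, and none of the 3 was called. The lymph node stroma markers were highest on that array as well, with means of -1.86, -1.66 and -0.01 on the CaCl2 arrays. Their part in these values was not tested. Thrsp, a gene of fat synthesis, was 2.74, 2.25 and 1.03 after sham surgery and -0.80, 3.38 and 0.23 after CaCl2, and Gsta3 was 2.90, 2.50 and 2.94 in sham and 1.27, 3.88 and -0.27 in CaCl2 aortas; both were highest on the second CaCl2 array, and the groups overlapped. White adipocyte markers had means of 3.50, 2.58 and 2.20 in sham aortas and 0.58, 2.59 and 0.59 after CaCl2, with 1 of 5 called lower and 0 higher. Their part in these values was not tested.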

How the data were processed

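The labels describe 1-colour (Cy3) Agilent mouse arrays of total RNA from abdominal aorta, purified with an SV Total RNA kit in the extract protocol and with RNeasy in the design text. The deposited scanner files hold, per the file headers, a background-subtracted signal intensity for each spot. The submitters' processing notes name Agilent Feature Extraction 9.5.1.1 and the file headers 10.7.1.1. The sources used here give no genome build. The series table holds intensities normalized by the authors. Their log2 was taken here and used only as an alternative.

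From 55681 non-control probes, log2 of the processed signal minus each array's 75th percentile was taken, with spots of a probe averaged and outlier spots left out. Probes were kept (31875) where all 3 arrays of 1 group or both were well above background, and 9489 of them without a gene symbol were left out. Symbols came from RefSeq accessions (27235 probes), symbols (3581), synonyms (565) or the file alone (1817). The brightest probe stood for a gene; of 1721 called genes with several probes, 316 had a probe of opposite sign. limma 3.58.1 in R 4.3.3 was fitted to the 6 arrays without covariates, leaving 4 residual degrees of freedom, and adjustment was by Benjamini-Hochberg across 16552 genes. Precision is limited by having 3 arrays in each group. The procedure was tested on simulated data.

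Named were the 15 largest changes per direction among genes well above background on all 6 arrays, the 8 largest lower bounds and 10 steadiest changes per direction, up to 5 called members per direction of each list, and the 10 genes that spread most in each group; 5 of these genes, 1 of them among the largest decreases, are not reported here. Pax5, Atp6v1b2, Tcirg1, the genes compared on the CaCl2 plus IgG arrays, the families of the closing section and the promoters shown were chosen after values were seen. The comparison, lists and tests were chosen with earlier results of these data known. Alternatives covered scaling, background correction, filter, probe choice, blocks, weights and each array left out.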

Additional observations from a re-analysis of the deposited data

How the results depend on the processing

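Of the 377 called genes named by the rules, 231 kept their call under each of the alternatives that could test them and 146 lost it under at least 1. The 6917 calls, 41.8% of the genes tested, became 5134 to 6299 with 1 array left out. With no filter on dim probes they became 10606 of 24054 genes tested, or 44.1%. Genes changed at least 2-fold numbered 3947, 2263 after normexp background correction and 3524 to 4196 with 1 array left out. With the replicate block 5725 genes were called, 46.0% of them higher. Same-numbered samples did not deviate together (correlations of -0.11, -0.112 and -0.0635), so the numbers are not taken to pair the arrays. The share of called genes higher with CaCl2, 44.4%, was 81.2% under median scaling, 54.3% after quantile normalization, 54.4% in the authors' series table, 38.5% after normexp, 28.5% without the filter, 41.9% with genes well above background on all 6 arrays, 43.0% with the mean of a gene's probes, 47.4% with all 9 arrays in 1 fit, 46.8% with the slide as a block, and 44.6% to 46.8% with 1 array left out.

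Some named genes changed sign. Median scaling gave Dusp16 0.078, Fmnl3 0.056, Milr1 0.061, Atg16l1 0.11 and Tnfrsf10b 0.016. Milr1 was 0.030 after quantile normalization and 0.038 in the series table. After normexp, Pik3ap1 was -0.042, P2rx6 -0.026, S1pr4 -0.28, Frem1 -0.26, Ephb1 -0.029 and Hoxc5 -0.18. With the mean of probes, Pirb was 1.03, Ncl -0.27 and Qk -0.026. Median scaling adds the same amount to every gene by construction. For the others the cause was not tested. Of 86 counts of list members, 30 moved by over 1.5 times when some 1 array was left out.

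Having 3 arrays a group limits the precision, and dim probes carry less signal over background: the dimmest well above background signals were at -4.29, -4.19 and -4.35 on the sham arrays and -5.23, -5.08 and -4.92 on the CaCl2 arrays, so a bound reaches lower with CaCl2.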

Other observations

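Genes that an aorta is not known to use formed a dim group that was mostly lower with CaCl2. Over all tested genes, 23.2% were called lower and 18.6% higher. Of 113 olfactory receptor genes tested, 83 were called lower and 2 higher, with a median change of -1.39. Of these 113 genes, 58 were well above background on all 6 arrays. Vomeronasal receptors had 39 of 51 lower and 1 higher, with a median of -1.42, and 34 were well above background on all 6 arrays. The rest of both families passed the filter through 1 group alone, so their direction depends in part on the filter. Keratin-associated proteins were lower at 14 of 22 and higher at 1. The median stayed below 0 under quantile normalization, at -0.94 for olfactory and -0.85 for vomeronasal receptors, and under median scaling, at -0.86 and -0.89. Among long non-coding RNA genes 262 of 624 were lower and 55 higher. Zinc finger genes named Zfp had 96 of 323 lower and 13 higher, but 23 lower and 76 higher under median scaling. That scaling gave 9.75% lower and 42.2% higher over all tested genes. These families were chosen after their values were seen.

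On the third sham array, a patch of spots was bright. There were 99 spots over 3 log2 units above the other 5 arrays, and 34 of them lay in 1 window of 16 rows. On the other 5 arrays the fullest such window held 1 to 7 spots. Vac14, at -0.92, -1.06 and 7.05 on the sham arrays, and Coprs, at -0.22, -0.19 and 6.69, lie in that window with Marchf6, Pvr and Tyw5. None of these 5 genes was called.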
